A study of Mus musculus with 16 samples.

Results

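Endothelial cells form the inner wall of blood and lymphatic vessels, and 10 genes that mark these cells or act in them were followed in the colon of mouse pups: Egfl7, Pecam1, Cdh5, Kdr, Flt1, Tie1, Tek, Eng, Emcn and Sox17. They were taken by gene name from 1-colour expression arrays of whole colon RNA and made up 10 of the 36711 genes tested. All 16 pups were RjOrl:SWISS mice, an outbred stock, housed under specific-pathogen-free conditions and sampled at weaning, and no genetic change was named for either group. The 8 pups of the C-section delivery (CSD) group had been taken by hysterectomy and were nursed by foster mothers that had given birth vaginally. The 8 pups of the vaginal delivery (VD) group were nursed by other VD mothers, since these mothers had exchanged their litters. Biological mothers 3 and 4 gave 4 CSD pups each, with 4 females and 4 males in all, mother 5 gave 5 VD pups and mother 6 gave 3, with 2 females and 6 males. No mother gave pups to both groups, so that p-values over pups rest on 2 litters per delivery mode, and a difference between delivery modes and a difference between these litters cannot be fully told apart. The comparison asks whether the delivery mode goes with other levels of vessel genes in the colon wall at weaning.

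In the colon, endothelial cells carry the capillaries under the epithelium and are the surface through which leukocytes enter the mucosa. Vessels grow in response to vascular endothelial growth factor (VEGF), which acts on receptor tyrosine kinases of the endothelial surface, while angiopoietins acting on TIE receptors keep mature vessels stable. Endothelial cells hold to each other through VE-cadherin and PECAM-1, and factors of the ETS, SOX, GATA and KLF families keep their genes active.

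The arrays carried 18 probes for the 10 genes, and all 18 passed the filter on dim signals. Each gene had at least 1 of the 12 probes that lay well above background on all 16 arrays. The other 6 probes, of Kdr, Flt1, Eng and Sox17, lay well above background on at most 2 arrays. A level is given below as log2 intensity after background correction and quantile normalisation, averaged over the probes of a gene, and a log2 fold change is the CSD level minus the VD level from a linear model (limma) with delivery mode and sex, and with the biological mother as a random effect. Between 58.7% and 64.9% of the spots of an array lay well above background. The array of pup VD 11 had the lowest share. Of the markers of the labelled tissue, 10 of 10 epithelial and 9 of 9 smooth muscle genes had a probe well above background on all arrays, as had all genes of the leukocyte, fibroblast, mural, lymphatic and enteric neuron and glia lists, so that detection alone does not single out colon.

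All 10 endothelial genes had a lower mean in CSD than in VD pups, and Egfl7 alone passed the test. Their median log2 fold change was -0.12, while the median over all 36711 genes was 0.00 and 48.3% of all genes were lower in CSD pups. A gene was called at a Benjamini-Hochberg adjusted p under 0.05, which 460 genes, 1.25% of those tested, reached in either direction and 0.548% reached with a lower level in CSD pups. The number of genes called depended strongly on the setting and on single pups and litters, as given in the last section. Egfl7, Tie1, Emcn and Cdh5 had a limma p under 0.05 before adjustment, as had 7.09% of all genes with a lower level in CSD pups. Both CSD litter means lay below both VD litter means in 8 of the 10 genes, which was so in 20.3% of all genes, and the 2 exceptions were Pecam1 and Sox17. The 10 genes were read from the same pups and are not independent of each other. In RNA of a whole tissue, fewer endothelial cells and less RNA per cell cannot be told apart.

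**Figure D1:**
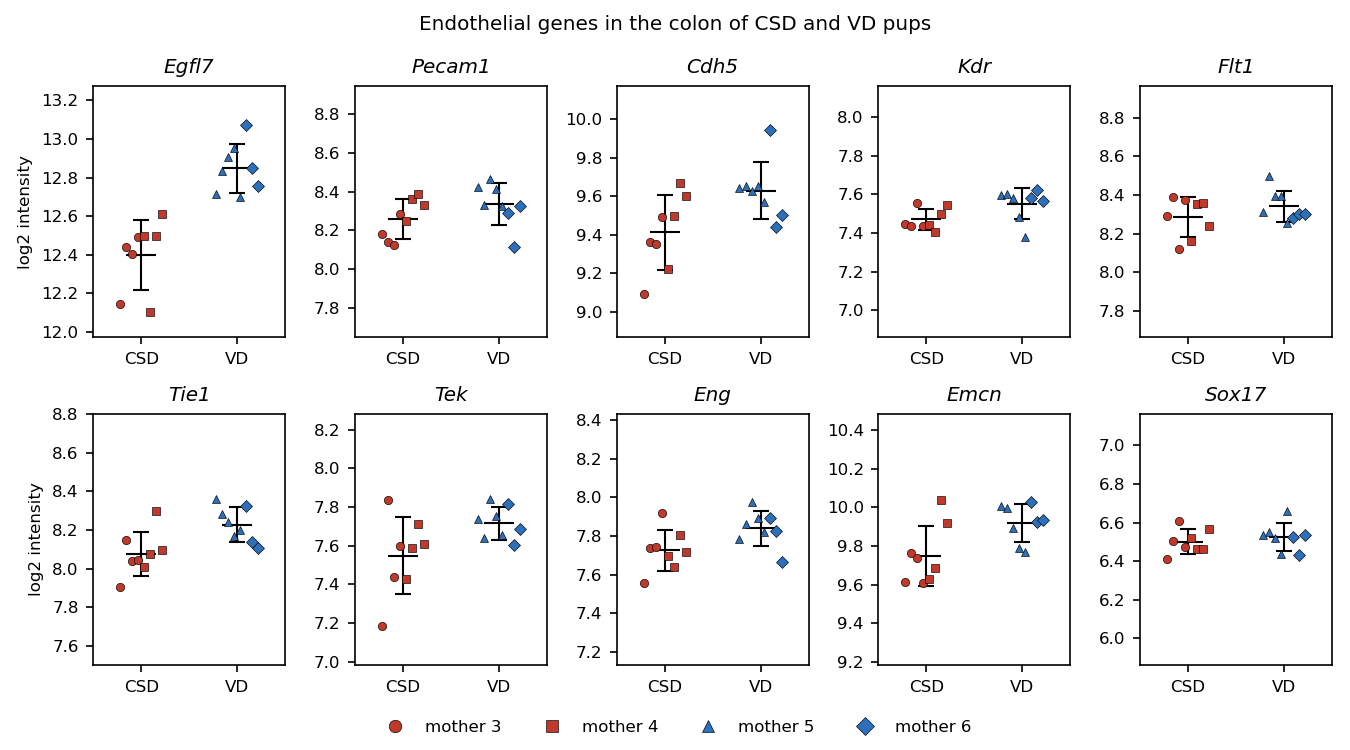
Log2 intensity (vertical axis, each panel spanning the same range of log2 units) of the 10 endothelial genes in each of the 8 CSD and 8 VD pups, with the symbol giving the biological mother, the bar the group mean and the whiskers the SD. The CSD and VD pups are apart for Egfl7, with 12.61 as the highest CSD and 12.70 as the lowest VD value, and the groups overlap for the other 9 genes.

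Egfl7 encodes a secreted protein with EGF-like domains that endothelial cells make while vessels form their tubes. Its only probe matches transcript NM_178444 at chr2:26448142-26448201 (mm9, + strand). The CSD pups had log2 intensities of 12.10 at the lowest, 12.47 at the median and 12.61 at the highest, and the VD pups had 12.70, 12.84 and 13.07. Every CSD pup lay below every VD pup, which was so for 73 genes, 0.2% of the 36493 with a value in all pups. The group means were 12.40 ± 0.18 and 12.85 ± 0.13 (SD, n = 8 each), and Egfl7 fell by 24.7% in CSD pups. Its log2 fold change was -0.41 ± 0.070 (SE, 95% interval -0.56 to -0.26), and limma gave an adjusted p of 0.0123. The two-sided exact permutation test of the group means gave p = 0.000155, the smallest that 8 against 8 pups allow. Egfl7 stood at place 84 of all genes by limma p.

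The litters of one delivery mode lay close to each other for Egfl7. The litter means were 12.37 (mother 3) and 12.43 (mother 4) in CSD pups and 12.82 (mother 5) and 12.89 (mother 6) in VD pups. On slide 1 alone the log2 fold change was -0.43, on slide 2 alone it was -0.38, and with the slide in the model it was -0.41 with an adjusted p of 0.0185. The call was kept whichever single pup was left out, with adjusted p between 0.0102 and 0.0357. It was lost in 7 of the 39 alternatives tried. These left out the litter of mother 3 (limma adjusted p = 0.0652) or of mother 5 (0.139), or used males only (0.174) or either slide alone (0.389 and 0.308). The others took litter means as samples (0.236) or the numbers shared by titles of CSD and VD pups as a replicate block. The log2 fold change of Egfl7 stayed between -0.46 and -0.37 in all 39.

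The Egfl7 gene also holds the hairpins of the microRNAs Mir126a and Mir126b, within its span on the GRCm38.p6 assembly of RefSeq, and miR-126 is a microRNA well known from endothelial cells. No gene name on the array matched them, so their level was not analysed here. The mature sequence is shown because it comes from the locus with the only called difference among the 10 genes, with its seed (bases 2 to 8) in capitals, at chr2:26591402-26591423 (GRCm38.p6, + strand).
mmu-miR-126a-3p: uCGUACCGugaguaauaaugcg

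Kdr and Flt1 encode the VEGF receptors VEGFR-2, which carries most of the growth signal, and VEGFR-1, which binds VEGF more tightly and signals less. Averaged over its 3 probes, Kdr was at 7.47 ± 0.05 in CSD and 7.55 ± 0.08 in VD pups, with a log2 fold change of -0.08 (adjusted p = 0.406). That mean holds 2 probes that lay well above background on 0 arrays. The remaining Kdr probe matches NM_010612 at chr5:76329309-76329368 (mm9, - strand) and lay well above background on all 16 arrays. It read 10.43, 10.55 and 10.66 in CSD pups (lowest, median, highest) and 10.48, 11.01 and 11.13 in VD pups. In 7 of the 8 VD pups it was above every CSD pup, and VD 11 alone lay among the CSD pups. Its log2 fold change was -0.35 ± 0.086 (SE), with an adjusted p of 0.0481 over 56366 probes, of which 1.74% were called in either direction and 0.642% with a lower level in CSD pups, and the exact permutation p was 0.0022. This call stood close to the threshold. It was kept in 1 of the 16 fits that left out 1 pup, that without VD 11 (adjusted p = 0.0077), and lost in the other 15, with adjusted p up to 0.136 and log2 fold changes between -0.41 and -0.32. With the brightest probe of each gene in place of the mean, the adjusted p of Kdr was 0.0600.

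**Figure D2:**
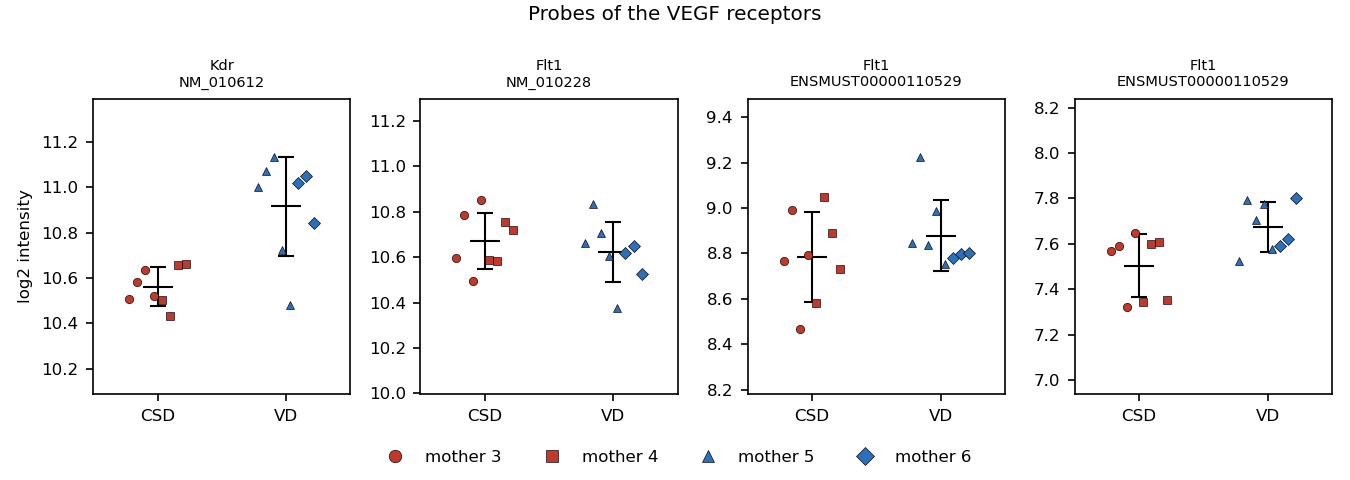
Log2 intensity (vertical axis, each panel spanning the same range of log2 units) of the 4 probes of Kdr and Flt1 that lay well above background on all arrays, titled by transcript, in each CSD and VD pup, with group means and SD and symbols by biological mother. The Kdr probe is higher in 7 of the 8 VD pups than in any CSD pup, and the groups overlap for the 3 Flt1 probes.

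Flt1 had 4 probes, of which 3 lay well above background on all arrays, and these did not run the same way. The probe of NM_010228 at chr5:148373790-148373850 (mm9, - strand) read 10.49, 10.66 and 10.85 in CSD pups (lowest, median, highest) and 10.38, 10.63 and 10.83 in VD pups, for a log2 fold change of 0.04 (adjusted p = 0.833). The groups covered nearly the same range. The 2 probes of ENSMUST00000110529 had log2 fold changes of -0.17 (adjusted p = 0.206) and -0.13 (adjusted p = 0.483). Averaged over the 4 probes, Flt1 was at 8.29 ± 0.10 in CSD and 8.34 ± 0.08 in VD pups, which gave a log2 fold change of -0.07 (95% interval -0.17 to 0.03, adjusted p = 0.566).

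The TIE receptors are receptor tyrosine kinases too. Tek encodes TIE2, the receptor of the angiopoietins, and Tie1 encodes its partner, for which no ligand of high affinity is well established. Tie1 read 7.90, 8.06 and 8.30 in CSD pups (lowest, median, highest) and 8.10, 8.22 and 8.36 in VD pups. In 6 of the 8 CSD pups it was below every VD pup, with CSD 6 as the highest CSD value. Its log2 fold change was -0.15 ± 0.056 (SE), with an unadjusted limma p of 0.0154, an adjusted p of 0.200 and an exact permutation p of 0.0126. Tek had means of 7.55 ± 0.20 and 7.72 ± 0.09, a log2 fold change of -0.15 with an interval of -0.32 to 0.01 and an adjusted p of 0.400. The SD of Tek over CSD pups was more than that over VD pups, and the lowest CSD pup read 7.18.

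Among the molecules of the endothelial surface, Cdh5 encodes VE-cadherin, the adhesion protein of endothelial junctions. It read 9.09, 9.43 and 9.67 in CSD pups (lowest, median, highest) and 9.44, 9.64 and 9.94 in VD pups. 4 CSD pups lay below every VD pup, and VD 6 stood above all others. The log2 fold change was -0.18 ± 0.083 (SE), with an unadjusted limma p of 0.0412, an adjusted p of 0.317 and an exact permutation p of 0.0230. Emcn encodes endomucin, a sialomucin of capillary and venous endothelium. Its pups read 9.61, 9.71 and 10.04 in the CSD group and 9.77, 9.93 and 10.03 in the VD group, and 6 CSD pups lay below every VD pup while 1 was the highest of all 16. Its log2 fold change was -0.16 ± 0.067 (SE), with an unadjusted limma p of 0.0314, an adjusted p of 0.280 and an exact permutation p of 0.0239.

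Pecam1, the gene of the adhesion molecule CD31, had means of 8.26 ± 0.10 in CSD and 8.34 ± 0.11 in VD pups and a log2 fold change of -0.08 (interval -0.20 to 0.04, adjusted p = 0.581). Its litters ran across the delivery modes, since mother 4's CSD pups averaged 8.33 and mother 6's VD pups 8.24. Eng encodes endoglin, a co-receptor for ligands of the TGF-beta and BMP family. Averaged over its 2 probes Eng had a log2 fold change of -0.09 (adjusted p = 0.429), and the probe well above background on all arrays, of NM_001146350, had -0.20 ± 0.063 (SE, adjusted p over all probes = 0.117). On that probe 7 of the 8 VD pups lay above every CSD pup. Sox17, a transcription factor of arterial endothelium, had the smallest difference of the 10 genes, with a log2 fold change of -0.02 over its 3 probes (interval -0.10 to 0.06, adjusted p = 0.881) and -0.08 on the probe well above background on all arrays (adjusted p over all probes = 0.550).

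Taken by probe, 11 of the 12 probes that lay well above background on all arrays were lower in CSD pups, and 3 of the 6 dim ones were. The log2 fold change of the 12 ran from -0.41 for Egfl7 to 0.04 for the Flt1 probe of NM_010228.

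**Figure D3:**
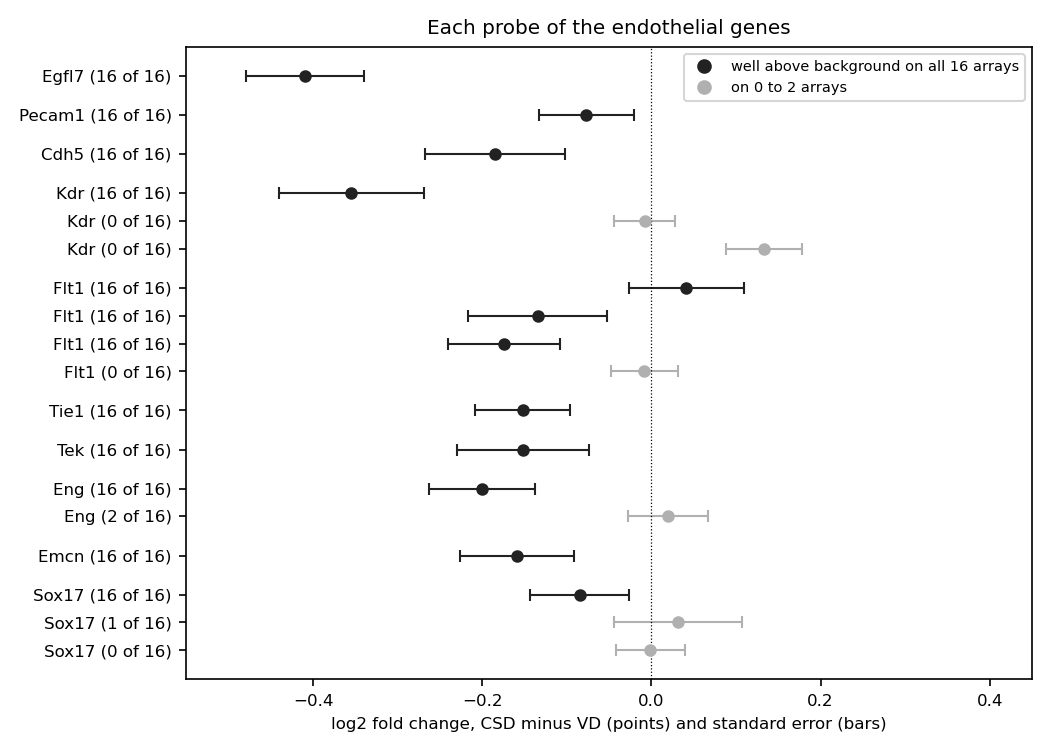
Log2 fold change, CSD minus VD, of each of the 18 probes of the endothelial genes (points) with its standard error (bars). The number of arrays on which the probe lay well above background stands beside the gene name. The Egfl7 probe at -0.41 and the Kdr probe at -0.35 lie farthest from 0, and the 6 probes seen on at most 2 arrays (grey) lie between -0.01 and 0.13.

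Set against the other 9 genes within each pup, as the Egfl7 level minus that of the other gene, Egfl7 was lower in CSD pups by between -0.38 (Flt1) and -0.22 (Eng) for 8 of them and by -0.10 for Kdr, on the log2 scale and with the probes well above background on all arrays. With the mean over all probes of Kdr, which includes the 2 dim ones, the value for Kdr was -0.37. These are descriptions with no test, since Egfl7 was singled out for having the largest difference of the 10 genes and the choice of probes was made after the data had been seen.

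The promoters of Egfl7 and Kdr are shown because these genes gave the 2 calls, by gene and by probe. The table of RefSeq promoters held 7 of the 10 genes with 9 promoters, and the 250 bases before each start were searched on both strands for the ETS core motifs AGGAAG and CGGAAG, which differ in their first base and so never match the same 6 bases. Of the 9 promoters 6 held at least 1, in 5 of the 7 genes, and 39.2% of the 32851 promoters of the table did. Egfl7 has 3 listed starts, at chr2:26580833-26581082, chr2:26583615-26583864 and chr2:26586386-26586635 (GRCm38.p6, + strand), with 3, 1 and 0 matches, and Kdr has 1 at chr5:75978456-75978705 (- strand) with 0 matches. The GATA motif AGATAA and the SOX motif ACAAAG were searched too, and 9.99% and 16.5% of all promoters held them. Of the 9 promoters 0 held AGATAA, and ACAAAG had 1 match each in Egfl7 start 3, Tek and Eng. Only ETS matches are in capitals, and all matches are a description of the letters only.
Egfl7 start 1: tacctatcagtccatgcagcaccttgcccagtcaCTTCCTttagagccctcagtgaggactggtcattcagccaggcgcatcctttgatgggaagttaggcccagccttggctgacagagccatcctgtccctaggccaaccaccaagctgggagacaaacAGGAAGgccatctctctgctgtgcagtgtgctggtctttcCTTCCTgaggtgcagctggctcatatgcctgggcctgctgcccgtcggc
Egfl7 start 2: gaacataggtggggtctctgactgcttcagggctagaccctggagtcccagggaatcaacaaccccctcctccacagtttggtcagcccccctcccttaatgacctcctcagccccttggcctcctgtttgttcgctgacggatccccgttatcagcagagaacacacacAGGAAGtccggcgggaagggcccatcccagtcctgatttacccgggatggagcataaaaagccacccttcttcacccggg
Egfl7 start 3: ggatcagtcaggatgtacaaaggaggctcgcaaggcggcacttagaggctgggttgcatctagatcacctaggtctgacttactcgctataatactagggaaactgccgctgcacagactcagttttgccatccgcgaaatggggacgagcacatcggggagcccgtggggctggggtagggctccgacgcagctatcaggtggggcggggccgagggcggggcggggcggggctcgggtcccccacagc
Kdr: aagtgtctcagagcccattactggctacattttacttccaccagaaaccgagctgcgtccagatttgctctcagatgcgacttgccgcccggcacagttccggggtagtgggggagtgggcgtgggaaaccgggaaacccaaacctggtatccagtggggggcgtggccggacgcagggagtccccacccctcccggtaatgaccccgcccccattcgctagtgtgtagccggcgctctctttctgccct

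Neither sex nor litter gave a call among the 10 genes. Between males and females 22 genes, 0.0599% of those tested, were called and 0 of the 10 were (1, Egfl7, at an unadjusted limma p under 0.05). In Egfl7 males lay above females by a log2 difference of 0.16 (limma adjusted p = 0.755). Females averaged 12.30 and males 12.50 in the CSD group, and 12.77 and 12.87 in the VD group. The test of whether the delivery difference itself differed between the sexes called 1 gene of all, 0.00272%, and 0 of the 10, with Emcn at the smallest unadjusted limma p (0.0452, adjusted p = 0.981). The VD group held only 2 females. Between mothers 3 and 4 limma called 32 genes (0.0872%) and between mothers 5 and 6 it called 321 (0.874%), with 0 of the 10 in either, and the only unadjusted p under 0.05 was that of Pecam1 in both pairs, with mother 3 below mother 4 by a log2 difference of -0.15 and mother 5 above mother 6 by 0.16.

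Correlations from pup to pup were taken within a delivery mode, and those of other gene pairs on these arrays were not computed. They used the mean over all probes of a gene, which for Kdr, Flt1, Eng and Sox17 includes dim probes. Of the 45 pairs of genes, 39 had a positive Pearson r over the 8 CSD pups (median 0.41, from -0.69 to 0.85) and 35 over the 8 VD pups (median 0.23, from -0.54 to 0.82). The lowest r was that of Flt1 and Sox17 in CSD pups and that of Kdr and Sox17 in VD pups, all genes with dim probes. Of these 90 correlations 0 passed an adjusted p under 0.05 in exact permutation tests, where the smallest adjusted p was 0.396. In CSD pups the highest was that of Tie1 and Emcn, with r = 0.85 (exact permutation p = 0.0061), Spearman's rho = 0.79 (exact permutation p = 0.0279) and r = 0.60 without the 2 pups farthest from the Tie1 median.

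The genes whose pattern over the 16 pups was most like that of the 10, by the mean of the 10 Pearson correlations among 15659 genes, were Cldn5 (mean r = 0.64), Ccm2l (0.63), C1qtnf1 (0.63), Ifitm3 (0.62), Ramp2 (0.62), AI448005 (0.62), 1700001K19Rik (0.62), Kcne4 (0.61), Lrrc32 (0.61) and Emilin2 (0.61). Cldn5 encodes the claudin of endothelial tight junctions and Ramp2 a partner of the adrenomedullin receptor. Each of the most alike genes was lower in CSD pups. Lrrc32 alone of them was called (log2 fold change -0.38, limma adjusted p = 0.0470), where 1.25% of all genes were called in either direction. How its call depends on the setting was not analysed. The correlations used the mean over all probes of each of the 10 genes, dim ones included. They are descriptions over 16 pups that share 4 litters and 2 delivery modes, so they include the delivery difference.

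Other genes of the vessel pathways were read from lists. The VEGF ligands and co-receptors counted 8 genes, of which 6 were lower in CSD pups and 0 were called, with a median log2 fold change of -0.14. The 2 with the smallest p were Nrp2, a neuropilin that helps VEGF receptors, at -0.15 ± 0.037 (SE, adjusted p = 0.0591), and Flt4, the receptor of lymphatic vessels, at -0.15 (adjusted p = 0.163). The only Flt4 probe was not well above background on all arrays. The list of angiopoietin ligands and TIE regulators held 8 genes, with 4 lower, 0 called and a median of 0.00. The 2 with the smallest p were Angptl4 at 0.65 ± 0.341 (SE, adjusted p = 0.408) and Angptl2 at -0.05 (adjusted p = 0.604). Both are angiopoietin-like genes rather than angiopoietins. The angiopoietin genes were Angpt1 at 0.03 (adjusted p = 0.933), Angpt2 at -0.01 (adjusted p = 0.932) and Angpt4 at 0.01 (adjusted p = 0.963). The Angpt4 probe was not well above background on all arrays. The 16 genes of the endoglin, ALK1 and BMP pathway had 11 lower, 0 called and a median of -0.03, with Smad1 at 0.19 (adjusted p = 0.0844) and Tgfb1 at -0.22 (adjusted p = 0.0970). The 11 genes of the Notch pathway of vessels had 7 lower, 0 called and a median of -0.04, with Notch1 at 0.53 (adjusted p = 0.164) and Dll4, the Notch ligand of sprouting tips, at -0.15 (adjusted p = 0.318).

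The list of endothelial transcription factors held the most calls. Of its 20 genes 18 were lower in CSD pups, 4 were called, all lower, and the median log2 fold change was -0.19. Of all genes tested, 48.3% were lower in CSD pups and 0.548% were called lower. The lists were chosen with earlier results of these data known, so these counts are a description and not a test. Lyl1 was at 10.48 ± 0.28 in CSD and 11.10 ± 0.18 in VD pups (adjusted p = 0.0234), Lmo2 at 8.32 ± 0.18 and 8.76 ± 0.18 (adjusted p = 0.0382), Tal1 at 7.26 ± 0.09 and 7.54 ± 0.12 (adjusted p = 0.0314), and Mef2c at 7.31 ± 0.16 and 7.59 ± 0.08 (adjusted p = 0.0449). In Lyl1 and Mef2c every CSD pup lay below every VD pup, which was so for 0.2% of the genes with a value in all pups. In Tal1 and Lmo2 7 of the 8 CSD pups lay below every VD pup. Lyl1, Tal1 and Lmo2 are also known as factors of blood-forming cells, and Mef2c also acts in muscle and in B cells, so that these 4 genes do not mark endothelium alone. These calls depended on the setting. In limma the call was lost in 10 of 39 alternatives for Lyl1, in 18 for Tal1, in 24 for Lmo2 and in 26 for Mef2c, with adjusted p up to 0.351, 0.452, 0.437 and 0.524, while all 4 genes stayed lower in CSD pups. Lyl1, Tal1, Lmo2 and Mef2c all lost it on either slide alone, in males only, with litter means as samples and without the litter of mother 4 or mother 5. Leaving out 1 pup at a time ended the call of Tal1 for 7 of 16 pups, of Lmo2 for 11, of Mef2c for 12 and of Lyl1 for 1 (VD 4, adjusted p = 0.0665).

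The list of other pan-endothelial genes held 36, of which 33 were lower in CSD pups, 1 was called and the median was -0.10. Over all genes tested, 0.548% were called with a lower level in CSD pups. The called gene was Myct1, an endothelial membrane protein gene. It read 7.47, 7.63 and 7.73 in CSD pups (lowest, median, highest) and 7.89, 7.99 and 8.16 in VD pups. Every CSD pup lay below every VD pup, as for 0.2% of the genes with a value in all pups. Its log2 fold change was -0.36 ± 0.042 (SE), with an adjusted p of 0.0013 and the smallest exact permutation p of 0.000155. The call was kept whichever pup was left out. It was lost in 6 of 39 alternatives, among them without the litter of mother 5 (adjusted p = 0.0611), in males only (0.111), on slide 1 alone (0.316), on slide 2 alone (0.174) and with litter means as samples (0.236). The 8 lymphatic endothelial markers had 6 lower, 0 called and a median of -0.12, and by limma p the first 2 were the chemokine gene Ccl21a at -0.48 ± 0.173 (SE, adjusted p = 0.192) and Reln at -0.10 (adjusted p = 0.376).

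**Figure D4:**
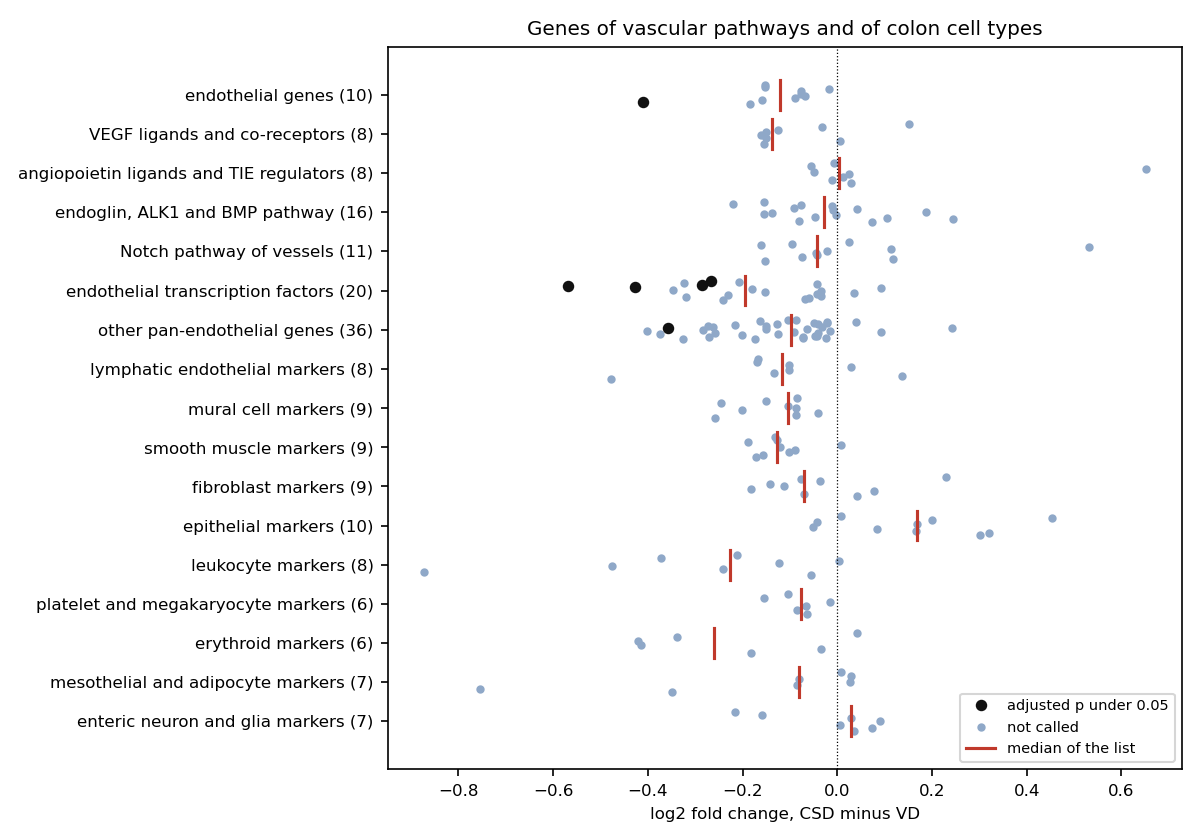
Log2 fold change, CSD minus VD (horizontal axis), of each gene in the lists of vessel pathways and of colon cell types, with the number of genes in brackets. Larger black points are genes with an adjusted p under 0.05, and the red bar is the median of the list, which is -0.12 for the 10 endothelial genes and 0.17 for the 10 epithelial markers.

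Markers of other cells of the colon also differed in mean, and their part in the difference of the endothelial genes was not tested. None of these lists held a called gene. The 9 mural cell markers, of the pericytes and muscle cells around vessels, were all lower in CSD pups, with a median of -0.10, and included Notch3 at -0.25 ± 0.075 (SE, adjusted p = 0.124) and Abcc9 at -0.26 (adjusted p = 0.160). Of the smooth muscle markers 8 of 9 were lower (median -0.13), with Smtn at -0.19 (adjusted p = 0.275) and Acta2 at -0.17 (adjusted p = 0.419). Of the fibroblast markers 6 of 9 were lower (median -0.07), with Dcn at -0.18 (adjusted p = 0.363) and Pdgfra at -0.08 (adjusted p = 0.608). The epithelial markers ran the other way, with 8 of 10 higher and a median of 0.17, among them Slc26a3, the chloride exchanger of colonocytes, at 0.45 ± 0.134 (SE, adjusted p = 0.113) and Epcam at 0.17 (adjusted p = 0.257).

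Among blood cell markers, 7 of 8 leukocyte genes were lower in CSD pups (median -0.23), with the B cell gene Cd79a at -0.48 (adjusted p = 0.0993). All 6 platelet and megakaryocyte markers were lower (median -0.08), with Ppbp at -0.10 (adjusted p = 0.401) and Gp1bb at -0.09 (adjusted p = 0.480), and 1 of the 6 had a probe well above background on all arrays. Of the erythroid markers 6 of 7 were on the array and 5 were lower (median -0.26), with Hba-a1 at -0.41 (adjusted p = 0.360) and Hbb-b1 at -0.42 (adjusted p = 0.417). The 7 mesothelial and adipocyte markers had 4 lower (median -0.08), with Lep at -0.08 (adjusted p = 0.328) and Cfd at -0.75 ± 0.743 (SE, adjusted p = 0.707). The 7 markers of enteric neurons and glia had 2 lower (median 0.03), with Sox10 at -0.16 (adjusted p = 0.381) and Uchl1 at -0.22 (adjusted p = 0.474).

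Summed over a list, on the linear intensity scale, the 10 endothelial genes came to 7301 at the lowest, 8672 at the median and 9596 at the highest in CSD pups and to 9898, 10733 and 12335 in VD pups. The Egfl7 probe alone made up between 58.5% and 70.2% of that sum in every pup, so that the sum mostly repeats the Egfl7 difference. Without Egfl7 the other 9 genes summed to 2766 at the lowest, 3115 at the median and 3544 at the highest in CSD pups and to 3245, 3435 and 3718 in VD pups, and the groups overlapped. The median sum of CSD pups over that of VD pups was 0.808 for these genes, 0.907 for the 9 without Egfl7, 0.872 for the other pan-endothelial genes, 0.880 for the mural cell markers, 0.905 for the smooth muscle markers and 0.908 for the fibroblast markers. It was 0.781 for the leukocyte markers, 0.809 for the platelet markers, 0.633 for the erythroid markers and 0.982 for the epithelial markers. Among the other vessel lists it was 0.921 for the VEGF ligands and co-receptors, 0.957 for the endoglin, ALK1 and BMP pathway, 0.986 for the endothelial transcription factors and 0.892 for the lymphatic markers, and it was above 1 for the angiopoietin ligands and TIE regulators (1.17) and for the Notch pathway (1.11). For the mesothelial and adipocyte markers it was 0.743 and for those of enteric neurons and glia 0.954. By mean signal over the 16 pups, where signals of different probes are not on one scale of abundance, the brightest gene was Thbd among the other pan-endothelial genes (11.82 in CSD and 11.90 in VD pups, with Procr at 11.72 and 11.92), Mcam among the mural markers, Tagln in smooth muscle, Dcn in fibroblasts, Lyz2 in leukocytes, Pf4 in platelets, Hba-a1 in erythroid cells and Krt8 in epithelium. It was Nrp2 among the VEGF genes and Angptl4, an angiopoietin-like gene, in the list of angiopoietin ligands and TIE regulators. Id1 was the brightest in the endoglin, ALK1 and BMP pathway, Hes1 in the Notch pathway and Klf4 among the endothelial transcription factors. Among the lymphatic markers it was Ccl21a, among the mesothelial and adipocyte markers Cfd and among those of neurons and glia Uchl1. A summed ratio follows the brightest genes of its list more than the others, and Klf4, at 16.47 in CSD and 16.38 in VD pups, was 1 of the 2 of 20 transcription factors that were not lower in CSD pups. In RNA of whole colon, which cells gave the signals of Klf4, Hes1 and Id1 was not tested.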

How the data were processed

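Colon RNA of 16 pups (8 CSD, 8 VD) was hybridised to 1-colour Agilent arrays. The deposited scanner files gave, per spot, the mean intensity and the background intensity as the authors' scanner software wrote them. The deposited matrix gave log2 values of 27036 genes, which the authors had corrected and quantile normalized with limma 3.38 (submitters' processing notes). Its 27022 genes shared with the scanner files included all 10 endothelial genes, and it served as an alternative.

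The intensities of all 62976 spots per array were background-corrected (normexp, offset 50), control and outlier spots were left out (59305 spots stayed before outliers), and log2 values were quantile normalized. Spots were averaged by probe. A probe stayed in if it exceeded the 5% quantile of an array on 4 arrays or more, which left 56366 of 56605 probes, and these were averaged by gene name. lmFit and eBayes of limma 3.58.1 (R 4.3.3) fitted delivery mode and sex, with biological mother as a random effect (consensus correlation 0.0152), and p-values were adjusted over all 36711 genes by Benjamini-Hochberg. Exact permutation tests were two-sided and used all 12870 assignments of pups. They take no account of litter or sex. Probes were also fitted as features, an analysis added after the data had been seen, as were the average over probes well above background on all arrays and the sum without Egfl7.

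Simulated data, built on these pups' litters and sexes with 36493 genes, 200 of them changed and no litter effect, served to test the model. It called 212 genes, 35 of them falsely (16.5%), and found 45 of the 50 genes changed by 0.5 log2 units. Without mother in the model it called 189, 13 of them falsely (6.88%), and found the same number of those 50. Both shares of false calls were above the 5% aimed at. This was a single simulated draw, and data with a litter effect were not simulated. The shares therefore do not give the false calls of the real comparison.

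Members and lists were chosen with earlier results of these data known. Named genes were the 10 members, from each list its called genes (2 genes of lowest p where no gene was called), and the 10 most alike genes. The value of 1 gene of the leukocyte list that this rule names is not reported here. The scanner files name genes as in the design of the array, and probe positions are on mm9. The exon or UTR of a probe was not analysed here. Promoters and microRNAs came from RefSeq (GRCm38.p6). 1 of 7 erythroid markers, Hbb-bs, was not found by name. Alternatives covered the background correction, scaling, filter, choice of probe, model, slide, sex, litter and each pup. The number of arrays and litters limits the precision.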

Additional observations from a re-analysis of the deposited data

Results flagged for a closer look

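In VD pups Cdh5 had 1 pup, VD 6, at a log2 intensity of 9.94, whose distance to the next pup, as a part of the range of the group, was above the limit of Dixon's test for 8 values. It was 1 of 20 groups tested (10 genes in 2 delivery modes), and chance alone marks about 1 group in 20. Without VD 6 the log2 fold change of Cdh5 was -0.15 and its adjusted p 0.408 in limma, against -0.18 and 0.317 with all pups.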

How the results depend on the processing

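In 39 alternatives, Egfl7 was lower in CSD pups in 39 and called in 32. Cdh5, Tie1, Tek and Emcn were lower in CSD pups in all 39 and called in 0. The direction turned in a few settings for genes that were not called: Kdr with offset 0 (0.121), Flt1 with the brightest probe (0.0416) and on slide 2 alone (0.0761), Eng on slide 2 alone (0.0104), Pecam1 without the litter of mother 5 (0.0381), and Sox17 in males only (0.0099), on slide 1 alone (0.0521), without the litter of mother 5 (0.0312) and with the numbers in the titles as a replicate block (0.0102). The brightest Flt1 probe is that of NM_010228, whose log2 fold change was given above as 0.04. The cause of the other turns was not tested.

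Of the 10 genes 0 were called in limma with litter means as samples (5 at an unadjusted p under 0.05), in males only (1), on slide 1 alone (5), on slide 2 alone (1), and without the litters of mothers 3 (1) or 5 (1). All genes called numbered 460, and 102 with offset 0, 243 with offset 16, 177 and 164 with the scanner-corrected intensity (quantile normalized, and minus the 75th percentile), 170 in the deposited matrix, 291 with probes well above background on all 16 arrays, 992 without sex, 11 on slide 1, and 212, 138, 189 and 2265 without the litters of mothers 3, 4, 5 and 6. It was 0 on slide 2 (3789 at an unadjusted p under 0.05), in males only (3295) and with litter means (4034). Without each pup it ran from 145 to 617, while 1 of the 10 was called each time. With the 75th percentile the median of all genes was 0.04.

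Numbers in the pups' titles are shared by 5 CSD and 5 VD pups. Correlations of same-numbered deviations ran from -0.05 to 0.22, so the numbers were not taken as pairs. With the number as a replicate block 0 of the 10 and 0 of all genes were called (1 and 3581 at an unadjusted p under 0.05), and the log2 fold change of Egfl7 was -0.40 with an adjusted p of 0.216.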
